A study of Mus musculus with 20 samples.

Results

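The response to bacterial lipopolysaccharide (LPS) that wild-type and Fkbp5 knockout mice shared was measured in the hippocampus, by RNA sequencing, 7 days after the injection. All 20 of the study's 20 libraries entered the comparison. The 10 LPS libraries were set against the 10 saline libraries in a model with terms for genotype and for library set (replicates 1 and 2 against replicates 3 to 5). The mice were males aged 12 weeks with the strain label C57BL/6J. By genotype they were wild-type or Fkbp5 knockout, and each had been given saline or 3 mg/kg of LPS by 1 intraperitoneal injection. Each of the 4 groups (saline and LPS for each genotype) held 5 libraries. The labels do not say how the knockout was made, whether it is limited to some cells, or whether the replicates came from separate animals. The p-values therefore measure the spread between these libraries, which may be technical.

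LPS is the outer membrane glycolipid of Gram-negative bacteria. The surface protein CD14 hands it to the receptor TLR4, and signalling through NF-kB then drives cytokines, acute-phase proteins and antigen presentation. LPS given into the body cavity also reaches the brain as a signal, mainly through blood vessels and circulating cytokines, and microglia, the resident macrophages of brain tissue, respond to it. MHC class I molecules, a heavy chain paired with beta-2-microglobulin, show peptides to cytotoxic T cells. In bulk tissue more cells of a type and more RNA per cell cannot be told apart.

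Total counts per library were 16746944 to 25840538 after saline and 16652992 to 27230202 after LPS. The share of counts from mitochondrially encoded genes was 4.66% to 5.68% in the 8 libraries of replicates 1 and 2 and 8.41% to 11.4% in the 12 of replicates 3 to 5, and each group held both sets in the same numbers. Fkbp5 itself stood at 56.7 to 73.4 CPM (a gene's count over the library total, adjusted with TMM factors) in the 10 wild-type libraries and at 25.1 to 35.99 CPM in the 10 knockout libraries, so the genotypes did not overlap. Its log2 fold change after LPS was 0.01 ± 0.07 (SE). Hippocampal neuron markers were present in every library. All 16 pyramidal cell genes were tested, with summed levels of 2393 to 3725 CPM over all libraries, and so were all 14 genes of dentate granule cells (786 to 1273 CPM). Thalamus markers had their highest scores in wild-type LPS replicates 1 and 4 and knockout LPS replicate 1. Otx2, a transcription factor of thalamus and other neighbouring tissue, stood there at 15.1, 5.64 and 13.1 CPM. In the other 17 libraries it was 0.17 to 2.13 CPM. Results are therefore also given without these 3 libraries where that ends a call.

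After LPS 24 genes rose and 0 fell in the model over both genotypes (edgeR quasi-likelihood F test, Benjamini-Hochberg adjusted p under 0.05). They made up 0.146% of the 16419 genes tested, and the genes that fell 0%. At an unadjusted p under 0.05 there were 596 higher (3.63%) and 351 lower (2.14%) genes. DESeq2 gave 43 higher and 2 lower genes, the latter Gm10060 and Magef1, and limma-voom gave 28 higher and 0 lower. Log2 fold changes of the 24 genes ran from 0.40 to 2.24, without Saa3, which had no count after saline. Of the 24 genes, 23 were protein coding. In the gene lists, 17 of them were found among acute-phase proteins (Saa3, Lcn2), MHC class I (H2-D1, H2-K1, H2-Q6, B2m), checkpoint receptors (Lag3), the Toll-like receptor group (Tlr2, Cd14, Unc93b1), activated microglia (Lyz2, Cd52, Trem2), Fc receptors (Fcgr3), colony-stimulating factor receptors (Csf3r), class II presentation (Ctss) and interferon-stimulated genes (Lgals3bp). The other 7 were in no list (Gpr84, Adgre1, Rassf4, Neurl3, Lrrc3, Cd300c2 and AU020206). Without the library set term 8 genes rose, all among the 24 (Saa3, Lag3, H2-D1, H2-K1, H2-Q6, Gpr84, Unc93b1 and Neurl3). The other 16 had adjusted p = 0.0515 to 1 in that fit, all still above 0. Without any low-count filter 212 rose and 28 fell. Without the 3 libraries just described 14 rose, 12 of the 24 among them (Saa3, Lag3, H2-D1, H2-K1, Lyz2, Gpr84, Adgre1, Tlr2, Rassf4, Unc93b1, Csf3r and Cd52), and the other 12 had adjusted p = 0.0517 to 0.289, all still above 0.

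The rise was seen in every LPS library. For each library the log2 level of each of the 24 genes was set against the saline mean of the same genotype and library set. In the 10 LPS libraries the mean over the genes lay between 0.69 (wild-type LPS replicate 3) and 1.19 (knockout LPS replicate 2), and 23 or 24 of the 24 genes were above their saline mean. In the saline libraries the mean lay between -0.11 and 0.19. This is a description of the genes that were selected for their rise.

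**Figure D1:**
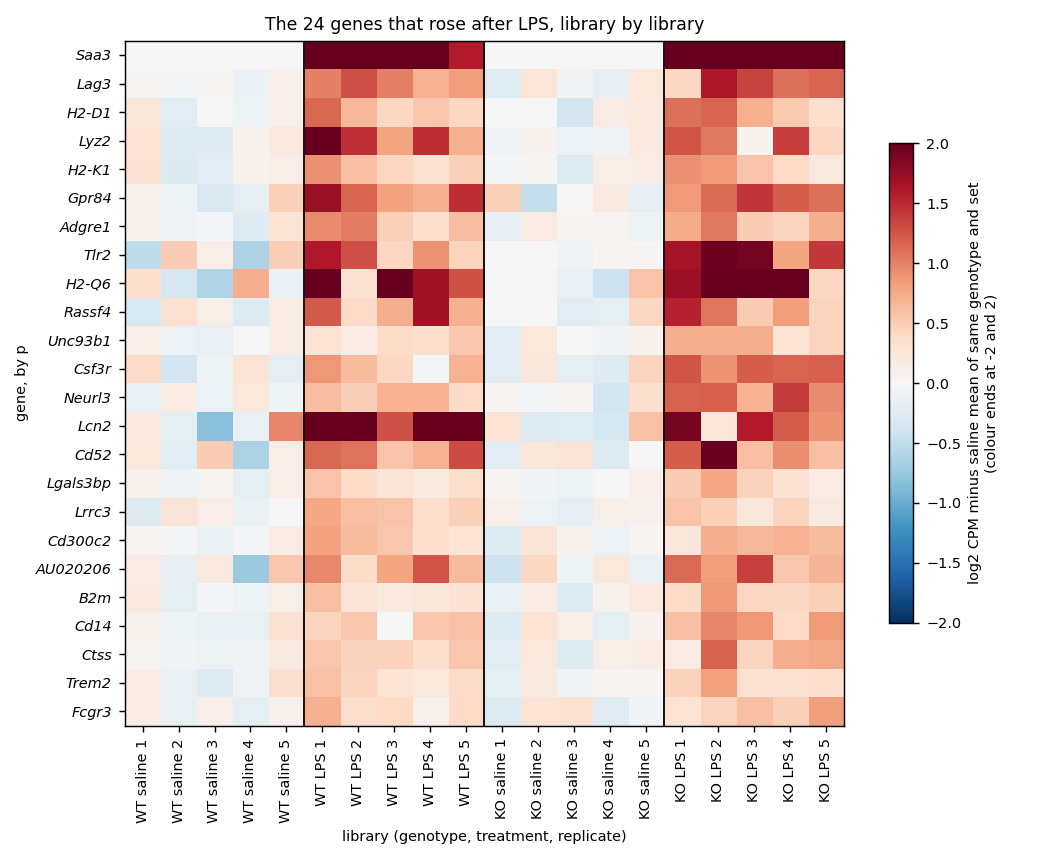
Log2 CPM of the 24 genes that rose after LPS (lines, ordered by p) in each of the 20 libraries (columns), minus the mean of the saline libraries of the same genotype and library set; red is above that mean, blue below, and colours end at -2 and 2. Each LPS library had 23 or 24 genes above the mean, and average shifts of 0.69 to 1.19 stand beside -0.11 to 0.19 in saline libraries.

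Complete separation of the groups was rare. In 4 genes (0.0244% of those tested) all 10 LPS libraries were above all 10 saline libraries, and 3 of them, Saa3, Lag3 and H2-D1, were among the 24. The other was Hpse, the heparan sulfate cleaving enzyme heparanase, named after its values were seen. It had at most 0.434 CPM after saline and at least 0.436 after LPS (log2 fold change 0.90 ± 0.19, adjusted p = 0.0698). Saa3 and Hpse, so low after saline, entered the test through their LPS libraries, so their direction was not free. Compared within genotype and library set, all 10 LPS libraries were above all their saline libraries in 14 of the 24 genes, against 16 genes (0.0974%) of all tested.

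The acute-phase gene Saa3 had the smallest p. Saa3 codes for a serum amyloid A protein that macrophages and other local cells make in inflammation, outside the liver. It had 0 counts in all 10 saline libraries and 347 counts after LPS, with 3 to 69 counts per wild-type LPS library and 16 to 92 per knockout LPS library. Its level after LPS was 0.196 CPM at the lowest, 1.04 at the median and 3.33 at the highest. All LPS libraries were thus above all saline libraries, and the level was at least 116-fold higher than a limit of 3 counts over the saline group (edgeR adjusted p = 2.56e-05). Such limits cover counting error only.

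Lcn2, the secreted iron-binding protein lipocalin 2, stood at 0 CPM in the lowest saline library, 0.10 at the median and 0.332 at the highest. After LPS it stood at 0.103, 0.618 and 0.913 CPM, and 8 of 10 LPS libraries were above every saline library. Its log2 fold change was 2.24 ± 0.40 (SE, adjusted p = 0.0137), on 23 counts after saline and 115 after LPS in all. Without the library set term the adjusted p was 0.0681. Of the 17 acute-phase and iron-binding genes listed, 6 were expressed highly enough to be tested. All 6 were above 0 and 2 passed the threshold, against 49.1% above 0 over all genes, and the median was 0.14 against 0.00. The 2 were Saa3 and Lcn2. With so few counts after saline they entered the test through their LPS libraries, so their direction was not free.

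Promoters are shown for these acute-phase genes because both were near 0 after saline. They are the 250 bases before the RefSeq start on GRCm38.p6, in the direction of transcription, at chr7:46715677-46715926 (minus strand) and chr2:32387740-32387989 (minus strand). Capitals mark matches to a C/EBP motif (TTGCNNAA) and an IRF core (AANNGAAA), searched on both strands. In Saa3 the capitals are the IRF core at -123 and the C/EBP motif at -99, and in Lcn2 the C/EBP motif at -216, where -1 is the base before the start.
Saa3: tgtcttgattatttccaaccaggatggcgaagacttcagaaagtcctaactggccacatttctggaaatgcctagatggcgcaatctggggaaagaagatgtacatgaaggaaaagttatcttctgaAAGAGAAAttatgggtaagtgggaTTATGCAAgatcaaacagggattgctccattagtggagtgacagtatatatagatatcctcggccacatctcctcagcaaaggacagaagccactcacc
Lcn2: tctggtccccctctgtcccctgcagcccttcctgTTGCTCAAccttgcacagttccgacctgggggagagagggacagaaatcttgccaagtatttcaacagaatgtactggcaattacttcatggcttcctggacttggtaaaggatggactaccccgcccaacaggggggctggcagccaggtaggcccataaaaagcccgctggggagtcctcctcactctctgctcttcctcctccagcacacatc

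Of the MHC class I genes, both classical heavy chains, the light chain and H2-Q6 rose. H2-D1, a classical class I heavy chain (chromosome 17, 35262730 to 35267499 on mm10), stood at 24.6, 35.0 and 41.5 CPM (lowest, median and highest library) after saline and at 42.6, 53.5 and 64.4 CPM after LPS. The groups did not overlap, and the log2 fold change was 0.71 ± 0.10 (SE, adjusted p = 0.00195). H2-K1, the other classical heavy chain (chromosome 17, 33996017 to 34000347), stood at 18.9, 27.8 and 34.5 CPM after saline and 30.1, 39.1 and 43.8 after LPS. In H2-K1, 9 of 10 LPS libraries were above every saline library, and all 10 were above those of their own genotype and set (0.56 ± 0.09, adjusted p = 0.00533).

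B2m, the shared light chain beta-2-microglobulin (chromosome 2, 122147686 to 122153083), stood at 51.3, 78.0 and 101 CPM after saline and 70.4, 110 and 115 after LPS. Its log2 fold change was 0.41 ± 0.08 (adjusted p = 0.0269). The groups overlapped over all libraries, but within genotype and set all 10 LPS libraries were above saline. The call held in 10 of 20 fits that left out 1 library, and without the library set term the adjusted p was 1. H2-Q6, a non-classical class I gene, stood at 0.0639, 0.237 and 0.503 CPM after saline and 0.188, 0.9753 and 1.85 after LPS (2.11 ± 0.34, adjusted p = 0.00533). Heavy chain genes resemble each other closely enough to share reads, so the split of counts among them is uncertain, and B2m overlaps Patl2 on the opposite strand with the strand setting of the counting not given.

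The class I list held 11 tested genes of 14, and all 11 were above 0 with a median log2 fold change of 0.56 (0.82 in replicates 1 and 2 alone, 0.37 in replicates 3 to 5 alone). Of them 4 passed the threshold. H2-Q6, with at most 0.503 CPM after saline, entered the test through its LPS libraries, so its direction was not free. Without the 3 thalamus-rich libraries all 11 were still above 0, the median was 0.40 and 2 passed. H2-T23, a non-classical heavy chain, had 0.31 ± 0.11 (adjusted p = 0.667). The genes that cut, carry and load the peptides gave smaller values, with 7 of 12 above 0, a median of 0.02 (-0.02 without the 3 thalamus-rich libraries) and none past the threshold. Psmb8, a catalytic subunit of the immunoproteasome, had 0.35 ± 0.15, and Tapbp, the loading factor tapasin, had 0.18 ± 0.07 (adjusted p = 0.827 and 0.714). No test of the difference between these lists was made.

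The class I promoters are shown because the classical heavy chains and their light chain all rose. They are the 250 bases before the RefSeq start on GRCm38.p6, at chr17:34000348-34000597 (minus strand), chr17:35262844-35263093 (plus strand) and chr2:122147437-122147686 (plus strand). Capitals mark matches to the NF-kB consensus of 10 letters and to the IRF core (AANNGAAA), searched on both strands. In H2-K1 and H2-D1 the longer run is a pair of overlapping NF-kB matches (from -111 and -171) and the shorter run the IRF core (from -90 and -150). In B2m the IRF core (from -137) comes before the NF-kB match (from -126).
H2-K1: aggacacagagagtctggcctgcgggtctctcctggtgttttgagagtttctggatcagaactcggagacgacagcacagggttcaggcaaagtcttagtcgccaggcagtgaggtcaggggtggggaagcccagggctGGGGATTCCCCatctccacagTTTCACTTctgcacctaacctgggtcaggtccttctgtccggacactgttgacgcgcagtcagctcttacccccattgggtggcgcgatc
H2-D1: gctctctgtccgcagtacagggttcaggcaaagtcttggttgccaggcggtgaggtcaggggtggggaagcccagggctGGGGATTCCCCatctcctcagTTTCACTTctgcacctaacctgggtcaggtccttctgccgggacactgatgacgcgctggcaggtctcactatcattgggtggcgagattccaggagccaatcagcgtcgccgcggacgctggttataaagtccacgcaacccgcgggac
B2m: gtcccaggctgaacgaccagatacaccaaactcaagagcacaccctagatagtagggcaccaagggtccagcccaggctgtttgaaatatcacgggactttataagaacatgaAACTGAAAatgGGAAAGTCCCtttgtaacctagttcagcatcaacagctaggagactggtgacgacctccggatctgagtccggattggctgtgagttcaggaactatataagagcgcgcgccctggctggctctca

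Of the 24 genes, 19 had a promoter in the RefSeq table. A gene counted if any of its promoters held the motif. The NF-kB motif was in 7 of the 19 (36.8%: H2-D1, H2-K1, H2-Q6, B2m, Tlr2, Neurl3 and Fcgr3). Over all 27025 genes with promoters of the same length the share was 4.46%. The IRF core was in 10 (52.6%), against 23.9%. The C/EBP motif was in 3 (15.8%, Saa3, Lcn2 and Fcgr3), against 10.8%, and a PU.1 motif (GAGGAAGT) in 0, against 2.79%. The class I genes have related promoters and are not separate cases. A match of letters is a description of the sequence, and binding was not measured.

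Lag3, an inhibitory receptor best known from exhausted T cells and also expressed by microglia and some neurons, had the second smallest p. It stood at 5.35, 5.81 and 7.71 CPM (lowest, median and highest) after saline and at 8.66, 12.7 and 20.1 CPM after LPS. The groups did not overlap, and the lowest LPS value was that of knockout LPS replicate 1. The log2 fold change was 1.09 ± 0.12 (SE, adjusted p = 3.74e-05), and the adjusted p stayed at or below 0.000238 in each of 7 full-data alternatives and 20 fits without 1 library. Of 11 tested checkpoint genes 9 were above 0, with a median of 0.15, and Lag3 alone passed the threshold. Havcr2, which codes for the receptor TIM-3, had 0.33 ± 0.13, and Vsir, which codes for VISTA, had 0.17 ± 0.05 (adjusted p = 0.766 and 0.407). Of 19 lymphocyte markers 3 were expressed highly enough to be tested and none passed. The summed level of all 19 was 9.45 to 19.4 CPM after saline and 13.2 to 23.9 after LPS. Most of it came from Ighm, an immunoglobulin heavy chain gene, and the other 18 summed to 2.49 to 4.15 CPM and 2.74 to 5.996 CPM. Their part in the Lag3 result was not tested.

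**Figure D2:**
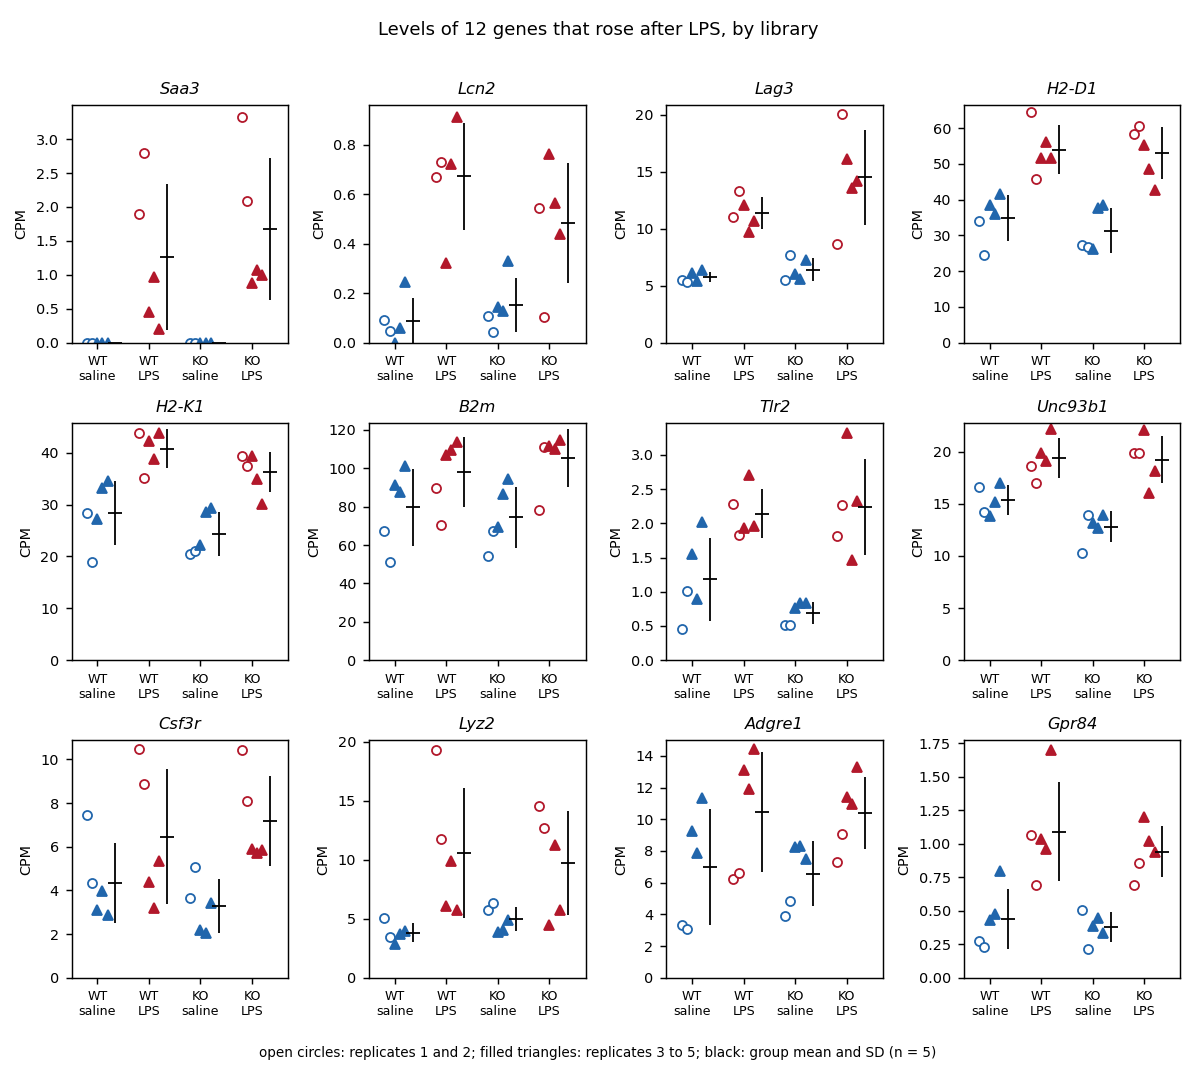
CPM of 12 of the 24 genes in each library, by group; open circles are replicates 1 and 2, filled triangles replicates 3 to 5, blue is saline, red is LPS, and black bars are the group mean and SD (n = 5). In Saa3, Lag3 and H2-D1 all LPS points lie above all saline points, while in Lyz2, Csf3r and Adgre1 the sets sit at different levels and the groups overlap.

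Sensors of microbial products formed the next group. Tlr2, a surface receptor that recognises lipoproteins of bacteria, had levels of 0.457, 0.830 and 2.02 CPM after saline and 1.47, 2.11 and 3.33 after LPS. The groups overlapped, with 5 of 10 LPS libraries above every saline library, and the log2 fold change was 1.31 ± 0.21 (SE, adjusted p = 0.00533). Unc93b1 carries the nucleic acid sensing Toll-like receptors to endosomes. It stood at 10.3, 13.9 and 17.01 CPM after saline and 16.0, 19.5 and 22.2 after LPS, and all 10 LPS libraries were above saline of their genotype and set (0.46 ± 0.08, adjusted p = 0.00603).

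Cd14, the co-receptor that binds LPS, stood at 1.59, 2.60 and 3.79 CPM after saline and 3.01, 3.75 and 5.02 after LPS (0.60 ± 0.12, adjusted p = 0.0322). That call held in 7 of 20 fits without 1 library, with adjusted p up to 0.0894, and without the library set term the adjusted p was 0.486 (0.0515 for Tlr2). Tlr4, the LPS receptor itself, had 0.20 ± 0.17 (adjusted p = 0.92), and its groups overlapped at 0.594 to 2.45 CPM after saline and 0.978 to 2.52 after LPS. Tlr13, a sensor of bacterial ribosomal RNA, had 0.40 ± 0.15 (adjusted p = 0.724). Over the Toll-like receptor list 19 of 22 tested members were above 0, the median was 0.21 (0.11 in replicates 3 to 5 alone), and 3 passed.

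Lyz2 and Adgre1 are genes of macrophages. Lyz2 codes for lysozyme M, a cell wall cutting enzyme that macrophages and granulocytes make. It stood at 2.88, 4.002 and 6.30 CPM after saline and 4.47, 10.6 and 19.3 after LPS. In 6 of 10 LPS libraries it was above every saline library, and its log2 fold change was 1.16 ± 0.17 (adjusted p = 0.00381). Adgre1, which codes for the macrophage marker F4/80, stood at 3.04, 7.67 and 11.3 CPM after saline and 6.23, 11.2 and 14.4 after LPS (0.68 ± 0.11, adjusted p = 0.00533). Replicates 1 and 2 were lower than replicates 3 to 5 in all 4 groups, and the treatments overlapped. Within genotype and set all 10 LPS libraries were above saline. Without the library set term the adjusted p was 0.0702 for Lyz2 and 1 for Adgre1.

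Gpr84, a receptor for medium-chain fatty acids that activated myeloid cells express, stood at 0.213, 0.406 and 0.795 CPM after saline and 0.688, 0.988 and 1.70 after LPS (1.31 ± 0.21, adjusted p = 0.00533). In 8 of 10 LPS libraries it was above every saline library. Gpr84, with a median of 0.406 CPM after saline, entered the test through its LPS libraries, so its direction was not free. Cd52, a small glycoprotein of leukocyte surfaces, stood at 0.553, 1.38 and 2.26 CPM after saline and 1.501, 2.71 and 4.45 after LPS (1.07 ± 0.19, adjusted p = 0.0137), with 7 of 10 LPS libraries above every saline library and an adjusted p of 0.318 without the library set term. Gpr84 overlaps Gm49482, and Cd52 overlaps Crybg2, on the opposite strand.

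Csf3r, the receptor for granulocyte colony-stimulating factor, stood at 2.05, 3.54 and 7.45 CPM after saline and 3.18, 5.86 and 10.5 after LPS (0.84 ± 0.14, adjusted p = 0.00933). The groups overlapped, with 4 of 10 LPS libraries above every saline library, and the adjusted p was 0.704 without the library set term. Neutrophils express it strongly, and brain cells can too. Of 17 neutrophil and monocyte genes 2 were tested, Csf3r among them. The summed level of all 17 was 3.71 to 9.37 CPM after saline and 7.20 to 15.1 after LPS, and 0 of them were without any count. Csf3r itself supplied much of this sum, and the other 16 together stood at 1.66 to 4.32 CPM after saline and 3.39 to 4.71 after LPS. Their part in the results for Csf3r, Lyz2 and Cd52 was not tested.

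Ctss, Trem2 and Fcgr3 passed with smaller changes. Ctss, the lysosomal protease cathepsin S, stood at 44.2, 65.3 and 97.8 CPM after saline and 57.3, 108 and 127 after LPS (0.58 ± 0.12, adjusted p = 0.0449). Trem2, the lipid-sensing receptor of microglia, had 9.67, 13.9 and 21.2 CPM and then 15.0, 17.7 and 22.2 (0.41 ± 0.08, adjusted p = 0.0449). Fcgr3, an activating receptor for antibodies, had 6.84, 9.76 and 12.7 CPM and then 10.1, 13.6 and 16.99 (0.45 ± 0.09, adjusted p = 0.0483). In all 3 genes the groups overlapped, and the calls held in 6, 4 and 5 of 20 fits without 1 library. Without the library set term their adjusted p was 0.778, 0.739 and 0.586. Ctss overlaps the pseudogene Hmgb1-ps5 on the same strand.

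Cd300c2, an immune receptor of the CD300 family, had a log2 fold change of 0.57 ± 0.11 (adjusted p = 0.0198, and 15 of 20 fits without 1 library). Lgals3bp, a secreted galectin-binding glycoprotein induced by interferon, had 0.40 ± 0.07 (adjusted p = 0.0137), and all 10 LPS libraries were above saline of their genotype and set. Neurl3, a ubiquitin ligase also known as a lung-inducible neuralized protein, had 0.89 ± 0.16 (adjusted p = 0.0109). Rassf4, a Ras-association domain protein, had 0.96 ± 0.16 (adjusted p = 0.00603). Rassf4 overlaps Depp1 on the opposite strand. Lrrc3, a leucine-rich repeat protein, had 0.47 ± 0.09 (adjusted p = 0.0174), and the non-coding gene AU020206 had 0.88 ± 0.17 (adjusted p = 0.0244, and 13 of 20 fits without 1 library). Without the library set term Neurl3 alone of these 6 passed, and the adjusted p of the others was 0.0765 (Rassf4), 0.162 (Cd300c2), 0.251 (Lrrc3), 0.678 (Lgals3bp) and 1 (AU020206). In each of these 6 genes between 4 and 9 of 10 LPS libraries were above every saline library.

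Microglia lists were mostly above 0 with small values. Of 21 tested genes of activated microglia 18 were above 0, with a median of 0.23 (0.08 in replicates 3 to 5 alone). Of the 21 genes 3 passed (Lyz2, Cd52 and Trem2). Without the 3 thalamus-rich libraries 15 of 21 were above 0, the median was 0.13, and Lyz2 and Cd52 passed. Itgax, the integrin CD11c of activated microglia, had 1.12 ± 0.28 (adjusted p = 0.229). So low after saline, Itgax entered the test through its LPS libraries, and its direction was not free. Of 17 genes of resting microglia 13 were above 0, with a median of 0.17 (0.13 in replicates 3 to 5 alone), and none passed. All 17 were above 0 without the 3 thalamus-rich libraries (median 0.22), and none passed there. No test of the difference between the activated and resting lists was made. Over all libraries the purinergic receptor P2ry12, a resting gene, had -0.08 ± 0.09, and Tmem119, another, had 0.20 ± 0.07 (adjusted p = 0.922 and 0.701). Aif1, which codes for the microglial protein IBA1, had 0.18 ± 0.15 (adjusted p = 0.918), at 3.23 to 5.66 CPM after saline and 3.51 to 7.71 after LPS.

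All 5 tested Fc receptor genes were above 0 (median 0.30, 1 past the threshold). Of the others Fcer1g, the shared signalling chain, had 0.38 ± 0.14 and Fcgr1 0.28 ± 0.11 (adjusted p = 0.655 and 0.714). Of 7 colony-stimulating factor receptors 6 were above 0 (median 0.19, 1 past the threshold). Without the 3 thalamus-rich libraries 3 of the 7 were above 0 (median -0.01), and in replicates 3 to 5 alone 4 of 7 (0.11). Csf1r, on which microglia depend for survival, had 0.19 ± 0.06 and Csf2rb 0.54 ± 0.22 (adjusted p = 0.522 and 0.746). Genes of macrophages of the brain's borders had 3 of 9 above 0 and a median of -0.24, but the direction differed between the library sets. The median was 0.28 (7 of 9 above 0) in replicates 1 and 2 and -0.46 (1 of 9) in replicates 3 to 5, and this difference was not tested. Lyve1, one of their surface receptors, had -0.42 ± 0.33, and Cd36, a scavenger receptor, had -0.48 ± 0.28 (adjusted p = 0.918 and 0.917). Their summed level was 16.7 to 31.6 CPM after saline and 16.0 to 35.4 after LPS.

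The complement genes with the smallest p lay just outside the threshold. C1qa, a chain of the initiating complex C1q, stood at 35.8, 60.7 and 87.4 CPM after saline and 51.0, 78.0 and 98.0 after LPS (0.43 ± 0.09, adjusted p = 0.0506), and C3ar1, the receptor for the fragment C3a, had 0.63 ± 0.14 (adjusted p = 0.0841). Itgb2, the integrin chain of complement receptor 3, had 0.43 ± 0.10 (adjusted p = 0.104). C3 had 1.03 ± 0.32 and C4b 0.36 ± 0.11 (adjusted p = 0.453 and 0.407). C3, low after saline, entered the test only with its LPS libraries counted, so its direction was not fully free. Of the 16 complement genes tested, 13 lay above 0; their median was 0.23 (0.50 in replicates 1 and 2, 0.11 in replicates 3 to 5) and none passed the threshold. Other genes named after their values were seen were just outside it as well. Mpeg1, the macrophage pore-forming protein perforin 2, had 0.48 ± 0.10 (adjusted p = 0.0506).

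MHC class II genes had 9 of 10 members above 0 and a median of 0.46, and Ctss alone passed. H2-DMb1, part of the peptide exchange factor, had 0.48 ± 0.18, and Ifi30, a lysosomal thiol reductase, 0.44 ± 0.15 (adjusted p = 0.724 and 0.649). The median was 0.81 in replicates 1 and 2 and 0.09 in replicates 3 to 5. Interferon-stimulated genes had 23 of 32 above 0, a median of 0.16 (0.05 in replicates 3 to 5 alone) and 1 past the threshold, Lgals3bp. Without the 3 thalamus-rich libraries class II genes had a median of 0.31 (8 of 10 above 0) and interferon-stimulated genes 0.05 (22 of 32). None of either list passed there. Irf7, the master regulator of type I interferon, had 0.67 ± 0.17, Parp14 0.56 ± 0.16 and the viral restriction factor Bst2 0.34 ± 0.10 (adjusted p = 0.195, 0.367 and 0.453). Among 13 interferon-inducible GTPases 9 were above 0 (median 0.14), with Gbp2 at 0.49 ± 0.15 (adjusted p = 0.432).

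NF-kB, cytokine, chemokine and adhesion genes had 16 of 21 above 0, a median of 0.11 and none past the threshold. Cxcl16, a chemokine, had 0.65 ± 0.18, and the TNF receptor Tnfrsf1a 0.22 ± 0.07 (adjusted p = 0.332 and 0.432). Astrocyte reaction genes had medians of 0.09 (8 of 10 above 0) for the genes shared by injuries and 0.17 (10 of 12) for those described after LPS. In replicates 1 and 2 alone the medians were 0.24 and 0.52. In replicates 3 to 5 alone they were 0.00049 (5 of 10 above 0) and -0.0048 (6 of 12). Their calls were Lcn2 and H2-D1, which other lists hold too. Gfap, the astrocyte filament, stood at 364 to 599 CPM after saline and 460 to 580 after LPS (0.21 ± 0.06, adjusted p = 0.389). Vim, another filament, had 0.21 ± 0.08 and the protease inhibitor Serpina3n 0.10 ± 0.07 (adjusted p = 0.714 and 0.917).

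**Figure D3:**
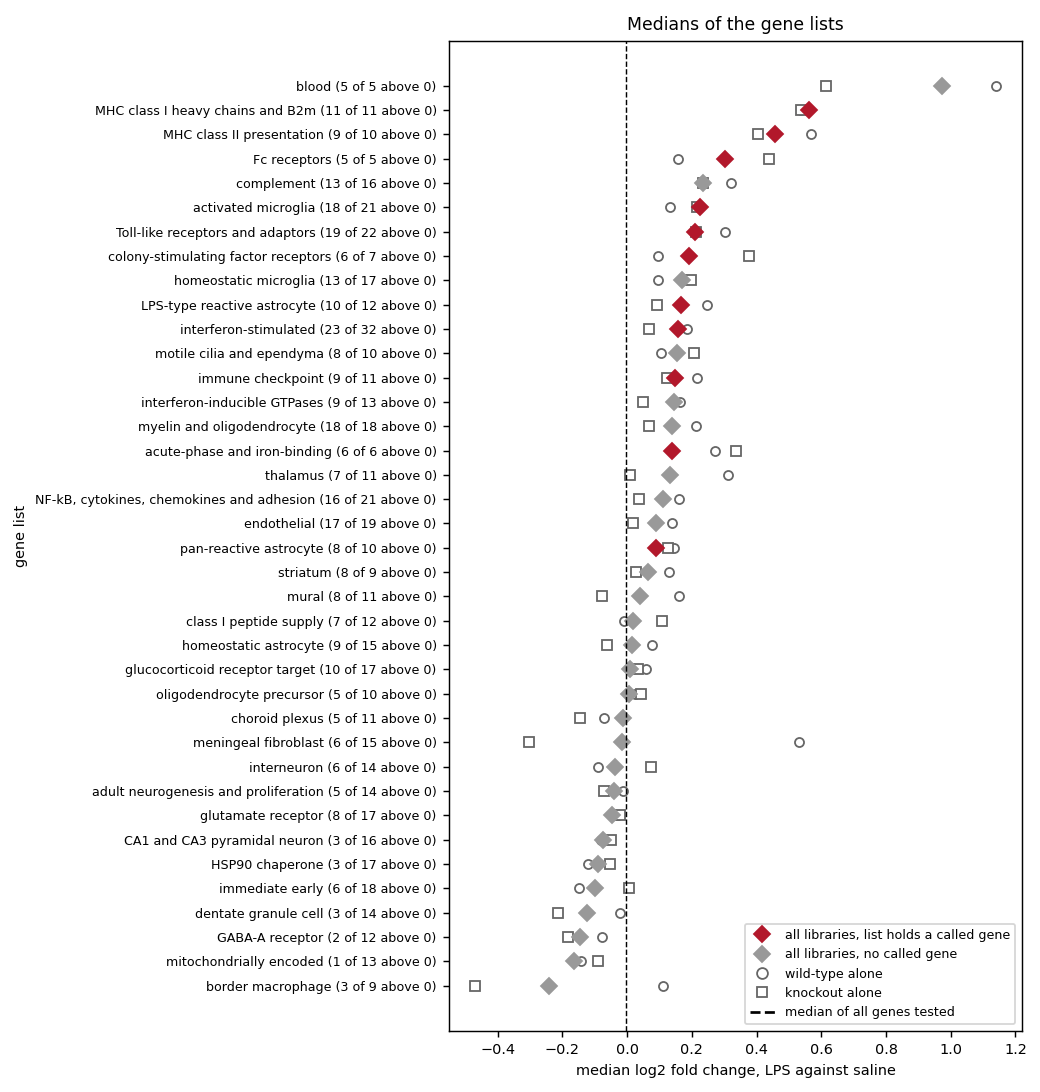
Median log2 fold change after LPS of the tested members of each of 38 gene lists, over all libraries (diamonds, red where the list holds a gene past the threshold), in wild-type alone (circles) and in knockout alone (squares); the dashed line is the median of all genes tested. Class I genes stand at 0.56, GABA-A receptor genes at -0.15, and meningeal genes at 0.53 in wild-type and -0.30 in knockout. Without the 3 thalamus-rich libraries (not drawn) the meningeal median over both genotypes was -0.25.

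Of the 38 lists with at least 4 tested members 18 had a median above 0.1 and 4 below -0.1. Members of 12 of the 40 lists were among the 24 genes. Lists of hippocampal neurons had no gene past the threshold and medians at or below 0. CA1 and CA3 pyramidal genes had 3 of 16 above 0 (median -0.08), dentate granule cell genes 3 of 14 (-0.12) and GABA-A receptor genes 2 of 12 (-0.15). Without the 3 thalamus-rich libraries, all of them LPS libraries, these medians were -0.01 (6 of 16), -0.08 (3 of 14) and -0.04 (3 of 12). Interneuron genes turned from -0.04 (6 of 14 above 0) to 0.07 (11 of 14). Gabra2, a subunit of that receptor, had -0.29 ± 0.10 (adjusted p = 0.626). The cannabinoid receptor Cnr1 had -0.18 ± 0.07, the granule cell calcium buffer Calb1 -0.17 ± 0.07 and the AMPA receptor subunit Gria1 -0.10 ± 0.04 (adjusted p = 0.714, 0.714 and 0.844). Glucocorticoid receptor targets had 10 of 17 above 0 with a median of 0.01, and Tsc22d3, one of the best known, had 0.11 ± 0.07 (adjusted p = 0.917). HSP90 and its co-chaperones, the complex FKBP5 belongs to, had 3 of 17 above 0 and a median of -0.09 (8 of 17 and -0.03 without the 3 libraries).

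Several lists of other tissue and of RNA composition had medians away from 0. All 18 myelin genes were above 0 (median 0.14). Of these Mobp had 0.30 ± 0.12 and Mbp 0.23 ± 0.08 (adjusted p = 0.746 and 0.603), with summed levels of 2811 to 5568 CPM after saline and 3290 to 7234 after LPS. Blood genes had 5 of 5 above 0 and a median of 0.97, with summed levels of 1.19 to 78.2 CPM and 3.88 to 85.8 CPM. Hbb-bt, a haemoglobin chain, had 1.34 ± 0.59 (adjusted p = 0.836). Thalamus genes had 7 of 11 above 0, a median of 0.13 (0.05 without the 3 libraries), and 215 to 317 CPM against 224 to 337 CPM. Among them Slc17a6, a vesicular glutamate transporter, had 0.87 ± 0.36, Tcf7l2 0.59 ± 0.21 and Lef1 0.63 ± 0.25 (adjusted p = 0.777, 0.655 and 0.744). Mitochondrially encoded genes had 1 of 13 above 0 (median -0.16, and -0.10 without the 3 libraries), and mt-Nd2, a subunit of complex I, had -0.16 ± 0.06 (adjusted p = 0.724). No gene of these lists passed the threshold, and their part in the results for the 24 genes was not tested beyond the fit without 3 libraries.

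No gene was called lower by the edgeR model over both genotypes or by limma-voom, while DESeq2 called Gm10060 and Magef1 lower. The smallest edgeR p among lower values was that of Gm10060, a processed pseudogene, at 1.41, 1.71 and 2.35 CPM after saline and 0.652, 1.12 and 1.42 after LPS (-0.70 ± 0.16, adjusted p = 0.114). Tmem45a, a transmembrane protein, had -0.81 ± 0.20, Magef1 -0.31 ± 0.08, the keratin Krt2 -0.38 ± 0.10 and the cadherin Cdh9 -0.21 ± 0.06 (adjusted p = 0.19, 0.232, 0.245 and 0.304). In none of these 5 genes did the groups separate fully, but all 10 LPS libraries were below saline of their genotype and set in Gm10060.

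Whether the response differed between the genotypes was tested as an interaction. No gene passed (0%, edgeR adjusted p under 0.05; DESeq2 and limma-voom also gave 0), and 472 (2.87%) had an unadjusted p under 0.05. All 24 genes were above 0 in wild-type alone and in knockout alone, and 19 of the 24 had the larger value in knockout. The share of all genes with the larger value in knockout was not counted, so a stronger response there is not shown. Over all genes tested the median was -0.0097 in wild-type and 0.0099 in knockout. Above 0 in both genotypes and both library sets were 24 of the 24, against 19.8% of all genes tested; these subsets are the libraries that selected the genes. Csf3r was the only one of the 24 with an unadjusted interaction p under 0.05, at 0.53 ± 0.19 in wild-type and 1.14 ± 0.17 in knockout (difference 0.61 ± 0.26 SE, unadjusted p = 0.0285, adjusted p = 0.989). Tlr2 had 0.92 ± 0.30 and 1.72 ± 0.26 (difference 0.81, 95% interval -0.02 to 1.64). Lcn2 was on the other side with 2.91 ± 0.56 in wild-type and 1.67 ± 0.52 in knockout (difference -1.28, interval -3.08 to 0.51). For the other genes except Saa3 the intervals also lay between -3.08 and 2.15. The interval of Csf3r, 0.06 to 1.17, left out 0 before adjustment over genes. Any difference inside a gene's interval is compatible with these values, so the absence of a difference between genotypes is not shown.

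For H2-D1 the interval of the genotype difference was -0.28 to 0.56, for H2-K1 -0.32 to 0.45, for B2m -0.13 to 0.54 and for Lag3 -0.31 to 0.69. Tested within 1 genotype, 1 gene rose in wild-type (Lag3, adjusted p = 0.0225) and 1 in knockout (Saa3, adjusted p = 0.00401) (0.00609% of genes each). All 24 had an unadjusted p under 0.05 in each genotype, against 3.05% of all genes higher in wild-type and 2.76% in knockout, but the 24 were selected from these same libraries. Among lists, meningeal fibroblast genes had a median of 0.53 in wild-type (14 of 15 above 0) and -0.30 in knockout (0 of 15), and border macrophage genes 0.11 and -0.47. The meningeal median also differed between the library sets, at 0.58 in replicates 1 and 2 and -0.32 in replicates 3 to 5. The mean centred log2 level of its genes was 0.78 and 0.44 in the thalamus-rich wild-type LPS replicates 1 and 4. In the other wild-type LPS libraries it was -0.49 to -0.11, and in wild-type saline libraries -0.92 to 0.27. Without the 3 thalamus-rich libraries the meningeal median over both genotypes was -0.25 (1 of 15 above 0). No gene of these lists passed the threshold over both genotypes.

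**Figure D4:**
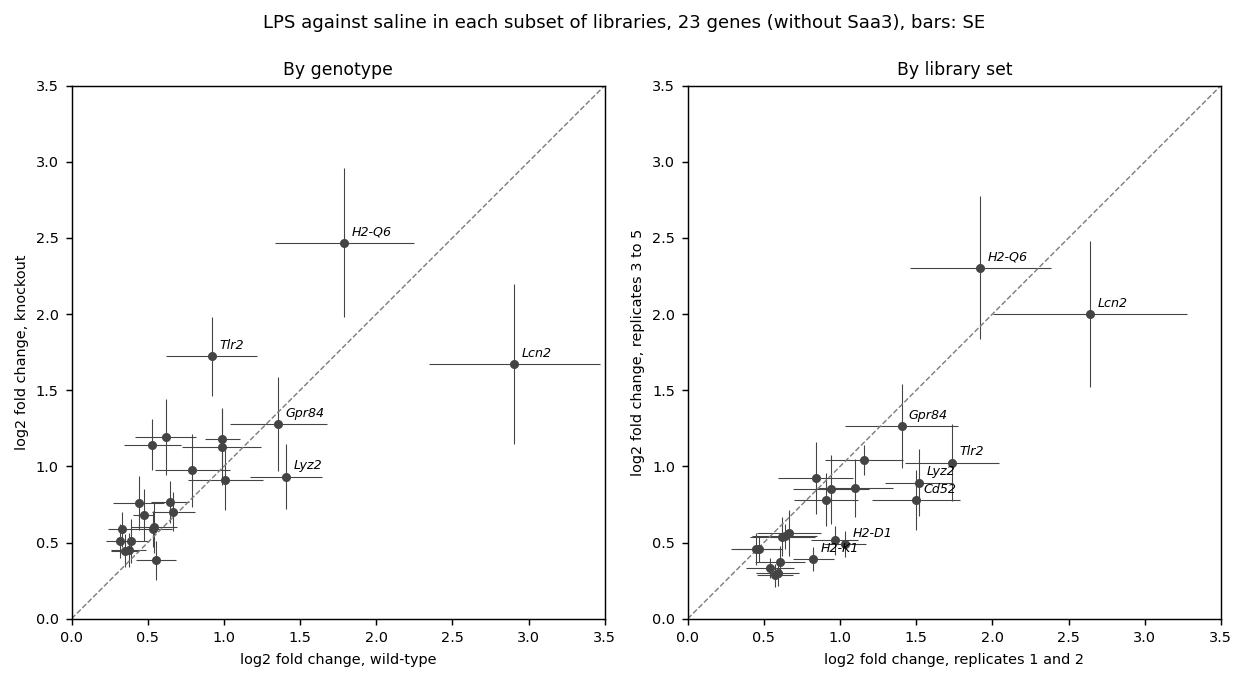
Log2 fold change after LPS (with SE bars) of 23 of the 24 genes, left in wild-type (horizontal) against knockout (vertical), right in replicates 1 and 2 (horizontal) against replicates 3 to 5 (vertical); the dashed line marks equal values, and Saa3 is left out because it had no count after saline. All points are above 0 in each subset, Lcn2 at 2.91 and 1.67 lies below the line by genotype, and H2-D1 at 1.03 and 0.49 lies below it by set.

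Whether the response differed between the library sets was also tested as an interaction. No gene passed a test of the difference (0%, edgeR adjusted p under 0.05; DESeq2 also gave 0), and 534 (3.25%) had an unadjusted p under 0.05. Limma-voom with quality weights called 1339. Of the 24 genes 21 had the larger value in replicates 1 and 2. The share of all genes with the larger value there was not counted. Over all genes tested the median was 0.0061 in replicates 1 and 2 and 0.0022 in replicates 3 to 5. H2-D1 had 1.03 ± 0.14 in replicates 1 and 2 and 0.49 ± 0.09 in replicates 3 to 5 (unadjusted p of the difference = 0.00352), and H2-K1 had 0.82 ± 0.13 and 0.39 ± 0.08 (unadjusted p = 0.0136). Adgre1 and Lgals3bp also had an unadjusted p under 0.05 (0.0457 and 0.0485). Lag3 had 1.16 ± 0.26 and 1.04 ± 0.10, and Unc93b1 0.47 ± 0.15 and 0.45 ± 0.08. The LPS libraries were above all saline libraries of their set in 20 of the 24 genes in replicates 1 and 2 (4 against 4 libraries) and in 8 of 24 in replicates 3 to 5 (6 against 6). Over all genes tested this held for 1.06% and 0.128%, and the 24 were selected from these same libraries. In a fit of replicates 1 and 2 alone 0 genes passed, and 506 had an unadjusted p under 0.05. In a fit of replicates 3 to 5 alone 6 genes rose (0.0365% of those tested) and 1 fell (0.00609%). Of the 6, Saa3, Lag3, Adgre1, Unc93b1 and Ctss were among the 24, and the sixth was Mpeg1. The gene that fell was Hopx, a homeodomain-only protein, with -0.39 ± 0.06 (adjusted p = 0.00682), named after its values were seen.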

How the data were processed

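RNA came from mouse hippocampus, and libraries were made from total RNA with NEBNext Ultra reagents, per the labels. The authors deposited whole-number counts per gene, not normalized, for 55536 Ensembl genes in 20 libraries. Trimmomatic 0.38, featureCounts 1.6.0, FastQC, MultiQC and the build mm10 are named in the submitters' processing notes. The aligner, the strand setting and the handling of reads with several positions are not given in the sources used here. All identifiers (100%) matched GENCODE M21 on GRCm38 (mm10), the source of symbols and positions, and 33626 genes had a count.

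Genes that passed filterByExpr by group (16419) were fitted in edgeR 4.0.16 (R 4.3.3) with TMM scaling, terms for library set, genotype and treatment and a robust quasi-likelihood F test, with Benjamini-Hochberg adjustment over all of them. SE is the log2 fold change divided by the square root of F. Interactions added 1 term to this model. For a gene with a count of 0 the group's upper limit was 3 counts, or 0.0149 CPM. The code was tested on simulated data.

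The comparison, the 40 gene lists, the named genes and the alternatives were chosen with earlier results of these data known. Named were all genes past the threshold, the 5 lower genes with the smallest p, up to 4 members of each list and a set of inflammation genes; the text prints part of these. Alternatives were the replicate block, no library set term, DESeq2 size factors, DESeq2 1.42.0, limma-voom 3.58.1 with quality weights, no filter, at least 1 CPM in 5 libraries, subsets by genotype and set, and leaving out libraries. Centred on group means within each set, libraries with the same replicate number correlated at -0.265 to 0.63 (median 0.0156), so the numbers were not taken as pairs.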

Additional observations from a re-analysis of the deposited data

Results flagged for a closer look

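In groups of 5 libraries, a value was noted when its gap to the nearest other library was over 0.710 of the group's range. This happened in 16 of 312 groups over 78 named genes (5.13%), and chance gives about 1 in 20.

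Knockout LPS replicate 1 accounted for 6 of the 16. It was lowest in Cd300c2 (2.93 CPM, others 4.01 to 4.23), B2m (78.4, others 110 to 115) and Fcgr1 (2.86, others 4.25 to 4.70). It was highest in the thalamus genes Tcf7l2 (12.0 CPM, others 5.86 to 7.63), Lef1 (12.6, others 2.76 to 4.25) and Otx2 (13.1, others 0.206 to 2.13). Without this library 30 genes rose, the 24 among them. B2m and Cd300c2 were above saline of the same genotype and set in 10 and 9 of 10 LPS libraries.

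Other LPS values that stood apart were Tmem45a in knockout LPS replicate 3 (0.927 CPM), Gbp2 in knockout LPS replicate 4 (3.05), Fcer1g in knockout LPS replicate 5 (15.1), and Ifi30 and Lyve1 in wild-type LPS replicate 1 (3.67 and 1.26), each the highest of its group. Among saline libraries the highest were Itgax in knockout replicate 5 (0.774 CPM, others 0.128 to 0.256) and Hbb-bt in wild-type replicate 5 (3.92). The lowest were Spi1, the myeloid transcription factor PU.1, in knockout saline replicate 1 (3.15), Serpina3n in wild-type saline replicate 1 (52.0) and Tapbp in wild-type saline replicate 2 (16.8).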

How the results depend on the processing

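Against 24 genes, edgeR gave 27 with the replicate block in place of the library set term and 26 with DESeq2 size factors, the 24 among them in each case. DESeq2 gave 45, the fit without a library set term 8, no low-count filter 240, the fit without the 3 thalamus-rich libraries 14, and leaving out 1 library 17 to 33. Subsets gave 0 genes (replicates 1 and 2), 7 (replicates 3 to 5), 1 (wild-type) and 1 (knockout), with fewer libraries in each. The number of lists that held a called gene, 12 in all libraries, was 0, 4, 1 and 1 in these subsets. The genotype interaction gave 85 genes and the set interaction 90 without a filter, and the set interaction 1339 with limma-voom, against 0 in each main test; the cause was not tested. Of the 24 genes none changed sign, 17 passed in all 20 fits without 1 library and 8 in every full-data alternative that tested them.

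Values near 0 changed sign. Fkbp5 had -0.049 and P2ry12 0.044 without the 3 libraries, -0.012 and 0.0062 in replicates 3 to 5, and Fkbp5 -0.059 in knockout and -0.017 to 0.046 without 1 library. Lyve1 had 0.032 in wild-type. The cause was not tested. At these depths a level under 0.0149 CPM over the saline group could not be told from 0.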

Other observations

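Many genes of leukocytes and cytokines were too low in count for the model. Among them, 94 members of the gene lists were compared after their values were seen, by an exact permutation test of mean CPM (two-sided, 14400 regroupings within genotype and library set, smallest p possible 0.000139, unadjusted). At p under 0.05 there were 18 higher and 0 lower genes. Here CPM was the count over the library total without TMM factors. Low-count genes outside the lists were not tested, so these counts have no background share. Ccl5, a chemokine of T cells and macrophages, had 10 counts over the 10 saline libraries and 99 over the 10 LPS libraries, with a count in 4 and 10 libraries (exact p = 0.000139). Pdcd1, which codes for the checkpoint receptor PD-1, had 6 and 46 counts, in 3 and 9 libraries (exact p = 0.000556). Gzma, a granzyme of cytotoxic lymphocytes, had 0 and 31 counts, the latter in 6 libraries (exact p = 0.0111). In edgeR without the low-count filter these 3 genes had adjusted p = 7.74e-08 (Ccl5), 0.00492 (Pdcd1) and 8.74e-04 (Gzma). That fit used the same counts and is not separate evidence. It called 240 genes, and also 85 in the genotype interaction and 90 in the set interaction, where the filtered fits called 0. Its p-values for sparse genes are therefore uncertain.

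Of 15 neutrophil and monocyte genes among the 94, 14 had a higher mean after LPS, 7 of them with an exact p under 0.05. No share over all low-count genes stands beside these counts, so a rise of these genes as a group is not shown. Mpo, a neutrophil granule enzyme, had 54 and 57 counts and Ccr2, a monocyte chemokine receptor, 27 and 45 (exact p = 0.952 and 0.327). Ly6c2, a marker of inflammatory monocytes, had 5 counts after saline and 27 after LPS (exact p = 0.00292), and Fcgr4, an antibody receptor of myeloid cells, had 15 and 56 (exact p = 0.00319). The neutrophil granule genes S100a9 and Ngp had 35 and 83, and 20 and 51 (exact p = 0.00694 and 0.0119). Cd3e, a chain of the T cell receptor complex, had 6 and 20 counts (exact p = 0.05). Among the cytokines of the early LPS response, Tnf had 4 and 11 counts, Il1b 17 and 28, Il6 8 and 7, and the chemokine Ccl2 7 and 24 (exact p = 0.175, 0.341, 0.76 and 0.197). Counts this low could not show whether these 4 genes differed. Cxcl10, an interferon-induced chemokine, had 40 and 77 counts, of which 28 were in 1 LPS library. Cell counts in the tissue were not measured.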
